A study of Mus musculus with 17 samples.

Results

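Interleukins and interleukin receptors were taken as every gene of the panel whose symbol is Il followed by a number, leaving out Il1a, Il1b, Il18, Il33, Il17a and Il22. The rule gave 23 of the 988 genes counted, of which 10 encode secreted ligands and 13 encode receptor chains. They were measured in colon of mice given azoxymethane, a carcinogen that causes colon tumors in rodents, in 17 libraries. Kit-B6 mice are the C57BL/6 background with normal Kit, and Kit-W/sh mice carry the W-sash allele, an inversion upstream of Kit that leaves adults short of mast cells. Tumors came from mice at postnatal week 32, after 6 injections spread across 6 weeks and a further 18 weeks, with 6 Kit-B6 and 6 Kit-W/sh libraries. Preneoplastic colon came from mice at postnatal week 14, after 3 injections across 3 weeks and a further 3 weeks, with 3 Kit-B6 and 2 Kit-W/sh libraries. All groups had received azoxymethane, and no group without it was analysed here. Stage therefore moves together with age, number of injections and tissue, and these cannot be told apart. The W-sash allele is carried by all cells of these mice and is not limited to mast cells.

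Interleukins are small secreted proteins through which leukocytes, epithelium and stroma signal to each other. Most act by joining receptor chains on the target cell, and many chains are shared: the common gamma chain Il2rg serves the receptors for IL-2, IL-4, IL-7, IL-15 and IL-21, and Il2rb serves those for IL-2 and IL-15. Cytokine receptors of this kind signal through Janus kinases and STAT proteins, whereas receptors of the IL-1 and IL-17 families signal through adaptor proteins that lead to NF-kB. Some chains bind their ligand without signalling and are known as decoys, among them Il1r2 and Il13ra2. In the colon, IL-6 is known as a growth and survival signal for epithelium in inflammation-linked tumors, IL-13 as a type 2 cytokine acting on goblet and tuft cells, and IL-7 and IL-15 as cytokines that epithelium and stroma make to sustain lymphocytes.

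Library totals ran from 616554 to 1399902 counts in tumors and from 616009 to 815973 in preneoplastic colon, and the 23 genes took between 0.127% and 0.266% of them. Levels are given as CPM, counts set to a common library size by edgeR, and the counting floor was 3 counts in a library, equal to between 2.15 and 5.43 CPM. Each gene is read by its own amplicon, so levels were compared between libraries and never between genes. Epcam, a colon epithelial marker, ran from 22190 to 34780 CPM over the libraries. Kit ran from 264 to 521 CPM in Kit-B6 and from 113 to 125 CPM in Kit-W/sh preneoplastic colon, and from 94.2 to 476 and from 49.1 to 258 CPM in tumors. Its coding sequence is intact in the W-sash allele, so Kit transcript can still be counted in Kit-W/sh mice. The genotypes did not overlap in preneoplastic colon but did in tumors, so the Kit level alone does not settle a library's genotype. The library labelled Kit-W/sh tumor 2 went against its label, with Cpa3 (mast cell carboxypeptidase) at 460 CPM against 0 to 9.86 CPM in the other 5 libraries of its group. Its Kit level was 258 CPM against 49.1 to 99.9 CPM in those 5. It is named where it sets a group's range, and the calls and genotype differences it bears on are also given without it.

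The edgeR stage test called 41.1% of all genes tested in Kit-B6 and 39.7% in Kit-W/sh mice. The share called in both was not counted. The promoters of the 4 interleukin genes called in both genotypes are shown here. They are the 250 bases before the start site from RefSeq, build GRCm38.p6, 5′ to 3′ on the gene's strand, and 16 of the 23 genes had an entry. Capitals mark matches, on either strand, to 5 short motifs: NF-kB (GGNNTTTCC), AGATAA for factors of the GATA family, AP-1 (TGAGTCA), STAT (TTCNNNGAA) and C/EBP (TTGCNNAA). Il6 lies on the plus strand at chr5:30012864-30013113, Il13 on the minus strand at chr11:53634703-53634952, Il1r2 on the plus strand at chr1:40085843-40086092 and Il17rb on the minus strand at chr14:30008897-30009146.
Il6: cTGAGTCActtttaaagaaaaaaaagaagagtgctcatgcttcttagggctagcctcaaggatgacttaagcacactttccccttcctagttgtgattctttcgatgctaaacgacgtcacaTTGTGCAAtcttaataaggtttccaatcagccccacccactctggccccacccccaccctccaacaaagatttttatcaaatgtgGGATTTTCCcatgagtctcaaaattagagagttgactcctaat
Il13: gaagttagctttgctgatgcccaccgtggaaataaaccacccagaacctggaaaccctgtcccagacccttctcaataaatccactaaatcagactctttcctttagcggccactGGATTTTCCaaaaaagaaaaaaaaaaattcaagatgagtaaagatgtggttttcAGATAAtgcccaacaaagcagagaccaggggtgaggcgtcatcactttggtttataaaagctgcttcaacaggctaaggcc
Il1r2: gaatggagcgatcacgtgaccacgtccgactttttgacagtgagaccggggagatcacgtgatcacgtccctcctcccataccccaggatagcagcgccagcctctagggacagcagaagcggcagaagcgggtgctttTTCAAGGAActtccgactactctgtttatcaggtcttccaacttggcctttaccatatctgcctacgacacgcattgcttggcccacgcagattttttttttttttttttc
Il17rb: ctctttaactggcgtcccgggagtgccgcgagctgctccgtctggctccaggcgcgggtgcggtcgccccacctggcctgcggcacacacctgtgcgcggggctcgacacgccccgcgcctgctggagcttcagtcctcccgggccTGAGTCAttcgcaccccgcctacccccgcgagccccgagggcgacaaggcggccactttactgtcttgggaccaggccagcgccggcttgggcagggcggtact
The Il6 window held an AP-1 match from -249 to -243, a C/EBP match from -128 to -121 and an NF-kB match from -43 to -35, counted from the start site. The Il13 window held an NF-kB match from -135 to -127 and a GATA match from -81 to -76, the Il1r2 window 1 STAT match from -111 to -103, and the Il17rb window 1 AP-1 match from -104 to -98. Of 32851 mouse promoter windows of this length, 4.93% held the NF-kB letters, 9.99% the GATA letters, 4.46% the AP-1 letters, 7.02% the STAT letters and 9.56% the C/EBP letters. No matches overlapped in these 4 windows. A match is a description of the letters and not evidence of a binding site, and the submitters' notes name another build (mm9), so no data were placed on these coordinates.

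Receptor chains cleared the counting floor in all libraries more often than ligands. Above 3 counts in all 17 libraries were 2 of 10 ligands, Il7 and Il15, and 9 of 13 receptor chains, Il1r1, Il1r2, Il1rap, Il2ra, Il2rb, Il2rg, Il17ra, Il17rb and Il21r. Requiring this in every library of at least 1 group added the ligands Il6, Il10, Il12b and Il13 and the receptor chains Il5ra and Il13ra2, giving 6 ligands and 11 receptor chains. By group, 4 ligands and 10 receptor chains cleared the floor in every library of Kit-B6 preneoplastic colon, 4 and 10 in Kit-W/sh preneoplastic colon, 3 and 10 in Kit-B6 tumors, and 4 and 11 in Kit-W/sh tumors. With a floor of 10 counts, 3 ligands and 11 receptor chains cleared it in every library of a group.

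Il17b, an IL-17 family ligand, never rose above the floor, with 1 count in each of 2 libraries. Il2, the T cell growth factor, reached at most 4 counts in a library and exceeded 3 only in Kit-W/sh preneoplastic 2. Il21, a product of helper T cells, exceeded 3 counts only in Kit-B6 preneoplastic 2, with 4. Il4, the type 2 cytokine, lay between 0 and 12.6 CPM, highest in Kit-B6 preneoplastic 2 and next, at 9.26 CPM, the library labelled Kit-W/sh tumor 2. Il12b, the subunit shared by IL-12 and IL-23, lay between 1.03 and 9.82 CPM and never exceeded 8 counts. Its groups in Kit-W/sh mice, 5.35 and 5.50 CPM in preneoplastic colon and 3.03 to 6.2 CPM in tumors, overlapped. The IL-12 receptor chains were also near the floor: Il12rb1 ran from 1.72 to 11.0 CPM and Il12rb2 from 0 to 12.6 CPM. Of these 7 genes Il4 and Il12rb1 were tested with edgeR, by stage and for the interaction, and neither passed. The other 5 had too few counts for the main edgeR test in any comparison. DESeq2 gave Il2, Il12b, Il12rb2 and Il21 an adjusted p by stage, none of them under 0.05.

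**Figure D1:**
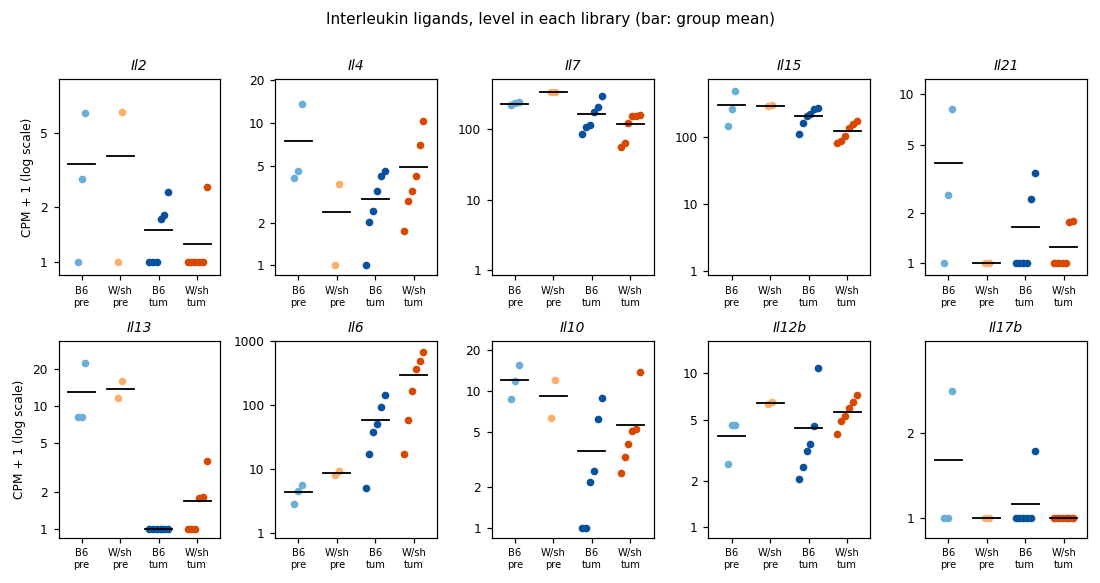
Level of each of the 10 ligands in every library, as CPM + 1 on a log axis with its own range per gene. Points are libraries in order of level, bars are group means, and groups are preneoplastic colon (pre) and tumors (tum) of Kit-B6 and Kit-W/sh mice. Il6 is at 4.66 CPM or lower in Kit-B6 preneoplastic colon and reaches 141 CPM in Kit-B6 and 668 CPM in Kit-W/sh tumors, while Il13 is at 0 in all 6 Kit-B6 tumors.

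The first comparison asked how these genes differ between established tumors and preneoplastic colon within each genotype. In tumors of both genotypes Il6 and the IL-1 decoy receptor Il1r2 were higher, and Il13 and the IL-25 receptor chain Il17rb were lower. Of the 23 genes, 18 had enough counts to be tested. In Kit-B6 mice 6 of the 18 passed an edgeR adjusted p of 0.05 (33.3%), 3 higher and 3 lower, beside 41.1% of all 869 genes tested (22.2% higher and 18.9% lower). In Kit-W/sh mice 8 of the 18 passed (44.4%), 4 higher and 4 lower, beside 39.7% of all genes tested (20.9% higher and 18.8% lower). Both shares are close to the background of a panel in which a large part of the genes differed with stage. Taken by class, 2 of 6 tested ligands and 4 of 12 tested receptor chains passed in Kit-B6 mice, and 4 of 6 and 4 of 12 in Kit-W/sh mice. Without adjustment, p was under 0.05 for 8 members in Kit-B6 and 11 in Kit-W/sh mice (51.8% and 49.4% of all genes), and DESeq2 called 6 and 10 (42.6% and 41.8% of the genes it tested). The median log2 fold change of the tested members was -0.31 in Kit-B6 and 0.51 in Kit-W/sh mice, beside 0.00 and 0.08 over all genes tested.

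The split between higher and lower depends on the scaling for the panel as a whole. Over all genes, 54.1% of the Kit-B6 calls and 52.8% of the Kit-W/sh calls were higher in tumors. With unscaled totals these were 73% and 70.1%, with 2 reference genes 66.1% and 61.1%, and with the 9 genes that the tables list last, the shares were 62.5% and 69.8%. Those scalings moved the median log2 fold change of all genes to 0.24, 0.18 and 0.08 in Kit-B6 mice and to 0.34, 0.23 and 0.31 in Kit-W/sh mice. None of the interleukin genes called by stage changed direction under them; other genes were not followed.

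Il6, the ligand that signals through gp130 to STAT3, was higher in tumors of both genotypes. In Kit-B6 preneoplastic colon it was at 1.81, 3.6 and 4.66 CPM, and in Kit-B6 tumors it ran from 4.14 to 141 CPM with a median of 43.0. Of the 6 Kit-B6 tumors, 5 lay above all 3 preneoplastic libraries, and tumor 4 lay among them. The summed counts were 345 in tumors and 6 in preneoplastic colon, a scaled ratio of 16.5 (95% counting interval 7.51 to 45.3), and the edgeR log2 fold change was 4.00 ± 1.37 (SE, adjusted p = 0.0276). Kit-W/sh mice had it at 7.14 and 8.26 CPM in preneoplastic colon and from 16.2 (the library labelled Kit-W/sh tumor 2) to 668 CPM in tumors, median 264, with no overlap. There the counts were 2130 against 10, a ratio of 37.1 (20.1 to 77.5), and the log2 fold change was 5.21 ± 1.55 (edgeR adjusted p = 0.0157). No preneoplastic library reached the count needed for testing, so Il6 entered the test through its tumor values alone. The call was lost when any 1 of the 3 Kit-B6 preneoplastic libraries was left out (adjusted p 0.0726 to 0.0856), or either Kit-W/sh one (0.106 and 0.121).

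Summed markers of neutrophils and of monocytes and macrophages were higher in the tumors too. Those of fibroblasts were higher in all but Kit-B6 tumor 4, which lay within the preneoplastic range. For neutrophils, 3 of 3 tested markers passed as higher in each genotype. Of the 8 neutrophil genes listed 4 were measured, and their summed level was 6.21 to 12.7 CPM in Kit-B6 and 7.14 to 15.1 CPM in Kit-W/sh preneoplastic colon, where Cxcr2, Fpr1 and Mpo were at or below the floor in every library. In tumors the sum was 62.1 to 258 CPM in Kit-B6 and 272 to 761 CPM in Kit-W/sh mice, and Mpo stayed at or below the floor. The 272 CPM belonged to the library labelled Kit-W/sh tumor 2, and the other 5 began at 362 CPM. Of the 7 measured of 9 monocyte and macrophage markers, 3 passed as higher and 1 as lower in Kit-B6 tumors. In Kit-W/sh tumors 5 passed as higher and 1 as lower. The sum of the 7 was 1176 to 1242 CPM in Kit-B6 and 1244 to 1496 CPM in Kit-W/sh preneoplastic colon. In tumors it was 1431 to 3501 and 2322 to 3890 CPM. Of the 3 measured of 8 fibroblast markers, 2 passed as higher and 1 as lower in each genotype. The sum of the 3 was 1702 to 3403 and 1661 to 3422 CPM in preneoplastic colon. In tumors it was 2840 to 11390 and 4530 to 7319 CPM. Kit-B6 tumor 4 had the lowest Il6 and Il1r2 of the tumors. It also had the lowest neutrophil, monocyte and macrophage, fibroblast and T cell sums of the tumors. Its Epcam level, 34780 CPM, and its innate lymphoid and natural killer sum, 562 CPM, were the highest of the tumors. The part of these cell types in the Il6, Il1r1 and Il1r2 results was not tested. In these bulk samples fewer cells of a type and less RNA per cell cannot be told apart.

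Il13, the type 2 cytokine that drives mucus responses in epithelium, went the other way. It was at 7.24, 7.19 and 21.7 CPM in Kit-B6 preneoplastic colon, 22 counts in all, and had 0 counts in each of the 6 Kit-B6 tumors. Measured against the floor of 3 counts per library, it was at least 3.89-fold lower in the tumors (edgeR adjusted p = 0.000827). In Kit-W/sh mice it was at 10.7 and 15.1 CPM in preneoplastic colon and from 0 to 2.58 CPM in tumors, 5 counts against 17. Preneoplastic colon was 19.5 times higher there (95% counting interval 6.91 to 67.6, edgeR adjusted p = 0.00520), and without preneoplastic 2 the adjusted p was 0.0601. All 6 Kit-W/sh tumors were at or below the floor for Il13, with at most 3 counts each. The ratio of 19.5 is thus taken against values not above the floor and cannot be set beside the 3.89-fold bound in Kit-B6 mice. Groups did not overlap in either genotype. Only 2 preneoplastic libraries, 1 of each genotype, reached the count needed for testing. Innate lymphoid and natural killer markers, 6 of 7 measured, summed to 321 to 630 CPM in Kit-B6 and 411 to 418 CPM in Kit-W/sh preneoplastic colon and to 141 to 562 and 92.8 to 309 CPM in tumors, with Ncr1 at or below the floor in every library outside Kit-B6 preneoplastic colon. In each genotype 1 of 5 tested markers of that list passed as lower and 1 as higher. Eosinophil markers, 3 of 4 measured, summed to 52.5 to 161 CPM in Kit-B6 preneoplastic colon and 13.8 to 53.3 CPM in Kit-B6 tumors, where 2 of 3 passed as lower. In Kit-W/sh mice the eosinophil sums overlapped, at 45.4 and 48.2 CPM against 22.7 to 88.7 CPM, and 1 of 3 passed as lower. The 88.7 CPM belonged to the library labelled Kit-W/sh tumor 2, and the next highest tumor was at 75.1 CPM. The part of these cells in the Il13 result was not tested.

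Il7 and Il15, which sustain T cells, natural killer cells and innate lymphoid cells, were lower in Kit-W/sh tumors. Il7 was at 325 and 333 CPM in Kit-W/sh preneoplastic colon and from 53.3 to 153 CPM in tumors, median 135, and the log2 fold change was -1.53 ± 0.42 (adjusted p = 0.0101 in edgeR). Il15 was at 287 and 307 CPM against 79.6 to 177 CPM, median 120, where the library labelled Kit-W/sh tumor 2 was highest, a log2 difference of -1.28 ± 0.39 (edgeR adjusted p = 0.0179). Neither gene's groups overlapped, and both calls were lost when either preneoplastic library was left out (adjusted p 0.0653 to 0.102). In Kit-B6 mice neither passed. Il7 there was at 212, 228 and 234 CPM against 83.1 to 284 CPM (log2 fold change -0.52 ± 0.39, edgeR adjusted p = 0.290), and Il15 at 494, 144 and 265 CPM against 111 to 269 CPM (-0.56 ± 0.35, edgeR adjusted p = 0.204). Of the 6 Kit-B6 tumors, 5 lay below all 3 preneoplastic libraries for Il7, and tumor 4 lay above them. Whether the fall differed between the genotypes was tested and did not pass, with an interaction of -1.01 ± 0.59 for Il7 (edgeR adjusted p = 0.733) and -0.71 ± 0.54 for Il15 (0.854).

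Il10, the anti-inflammatory cytokine, and Il4 were tested through few libraries and did not pass. Il10 was at 14.5, 10.8 and 7.76 CPM in Kit-B6 preneoplastic colon and from 0 to 7.88 CPM in tumors, median 1.40, with a log2 difference of -1.91 ± 0.84 (edgeR adjusted p = 0.0747). The Kit-W/sh values were 5.35 and 11.0 CPM against 1.52 to 12.8 CPM, which overlapped. The Il4 fold change was -1.60 ± 0.85 in Kit-B6 mice (edgeR adjusted p = 0.133) and 1.30 ± 1.19 in Kit-W/sh mice (0.391), from 13 against 11 and 29 against 2 counts.

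**Figure D2:**
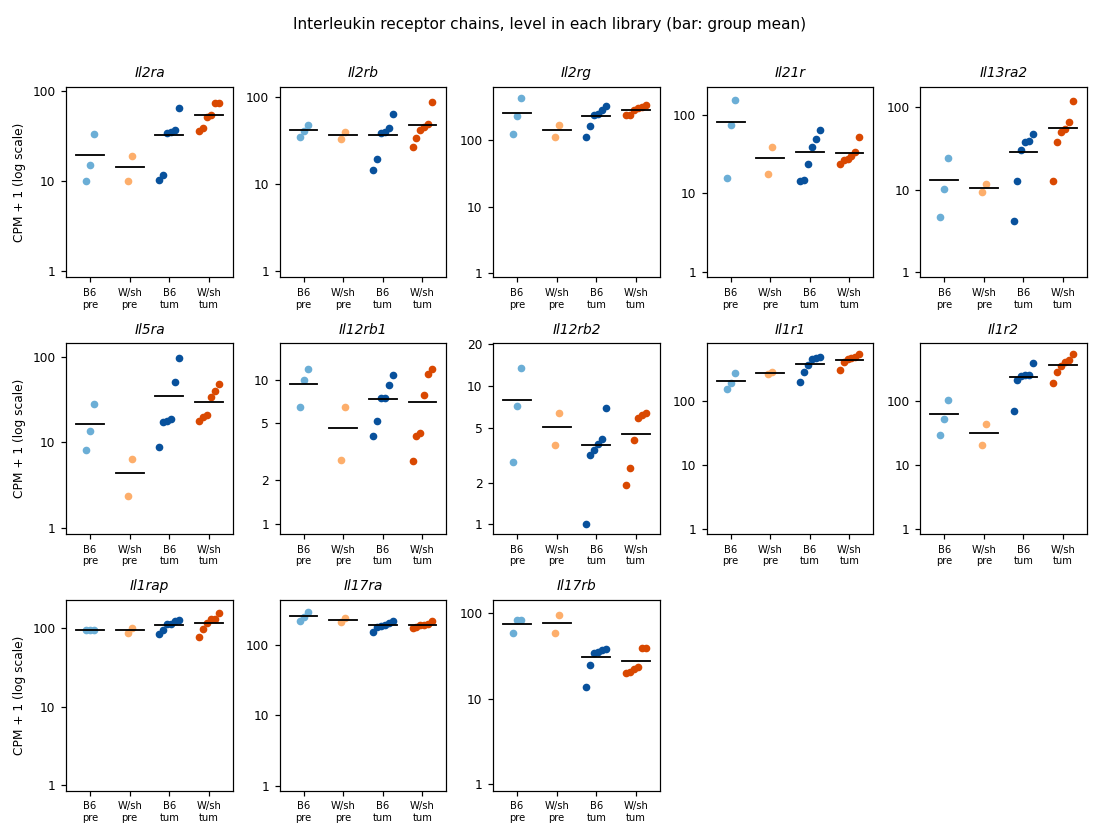
Level of each of the 13 receptor chains in every library, as CPM + 1 on a log axis with its own range per gene, with groups, points and bars as in the plot of ligands. Il1r2 is at 104 CPM or lower in all 5 preneoplastic libraries and above that in 11 of 12 tumors, and Il17rb is below 57.8 CPM in all 12 tumors.

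Among the IL-1 receptors, Il1r2 was higher in tumors of both genotypes and Il1r1 in Kit-B6 tumors. Il1r2, the decoy that binds IL-1 without signalling, was at 29.0, 104 and 52.8 CPM in Kit-B6 preneoplastic colon and from 70.3 to 397 CPM in tumors, median 252. Its log2 fold change was 1.94 ± 0.50 (edgeR adjusted p = 0.00656), and Kit-B6 tumor 4 was the one tumor below a preneoplastic library. In Kit-W/sh mice it was at 19.6 and 42.7 CPM against 191 to 537 CPM, median 379, a log2 difference of 3.53 ± 0.67 (edgeR adjusted p = 0.000920). The Il1r2 calls held in both genotypes when any 1 library was left out. Il1r1, the signalling IL-1 receptor, was at 154, 185 and 268 CPM in Kit-B6 preneoplastic colon and from 198 to 474 CPM in tumors, median 400, a log2 difference of 0.85 ± 0.27 (edgeR adjusted p = 0.0208). That call was lost without preneoplastic 1 (adjusted p = 0.0850) or preneoplastic 2 (0.0692), and when the Kit-B6 libraries were fitted alone (0.0696). Il1r1 in Kit-W/sh mice was at 278 and 257 CPM against 304 to 522 CPM, with no overlap, but the log2 fold change of 0.68 ± 0.31 did not pass (edgeR adjusted p = 0.0957). Il1rap, the accessory chain of the IL-1 receptor, ran from 75.9 to 155 CPM over all 17 libraries and passed in neither genotype, with log2 fold changes of 0.19 ± 0.24 and 0.31 ± 0.28. The neutrophil and the monocyte and macrophage marker sums given beside Il6 were also higher in tumors of both genotypes, and their part was not tested.

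Of the IL-17 receptor chains, Il17rb was lower in tumors of both genotypes and Il17ra in Kit-B6 tumors. Il17rb, which binds IL-17B and IL-25, was at 57.9, 82.7 and 82.2 CPM in Kit-B6 preneoplastic colon and from 12.6 to 37.3 CPM in tumors, median 33.4, a log2 difference of -1.34 ± 0.36 (edgeR adjusted p = 0.00806). In Kit-W/sh mice it was at 94.6 and 57.8 CPM against 19.2 to 38.5 CPM, median 22.1, a log2 difference of -1.53 ± 0.40 (edgeR adjusted p = 0.00765). The groups did not overlap in either genotype. Scaling to 2 reference genes ended both calls (adjusted p = 0.0543 and 0.0715), as did leaving out Kit-W/sh preneoplastic 1 for the second (0.166). Il17ra, the chain shared across the IL-17 family, was at 290, 218 and 250 CPM in Kit-B6 preneoplastic colon and from 153 to 218 CPM in tumors. Its log2 difference of -0.44 ± 0.16 (edgeR adjusted p = 0.0361) no longer passed with unscaled totals (-0.20, adjusted p = 0.335), and 6 of the 9 leave-one-out fits lost it. The Kit-W/sh values were 212 and 235 CPM against 174 to 219 CPM, a log2 difference of -0.25 ± 0.19 (edgeR adjusted p = 0.296).

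Of the 4 chains of the IL-2 family, Il2ra passed, in Kit-W/sh mice. Il2ra, the high-affinity IL-2 receptor chain carried by regulatory and activated T cells, was at 8.92 and 17.9 CPM in Kit-W/sh preneoplastic colon and from 34.4 to 72.8 CPM in tumors, a log2 difference of 1.95 ± 0.73 (edgeR adjusted p = 0.0430). The groups did not overlap. The call was lost without the library labelled Kit-W/sh tumor 2 (1.84, adjusted p = 0.0576), without tumor 3, 4 or 6, and without either preneoplastic library, so 6 of 8 such fits lost it. In Kit-B6 mice Il2ra was at 9.05, 32.4 and 14.0 CPM against 9.31 to 63.1 CPM, a log2 difference of 0.73 ± 0.58 (edgeR adjusted p = 0.319). Il2rg, the common gamma chain, was at 112 and 168 CPM against 237 to 344 CPM in Kit-W/sh mice. Its groups did not overlap, and its log2 fold change of 1.04 ± 0.43 did not pass in edgeR (adjusted p = 0.0640) but did in DESeq2 (0.0371). In Kit-B6 mice it was at 125, 431 and 230 CPM against 112 to 326 CPM, a log2 difference of -0.19 ± 0.34 (edgeR adjusted p = 0.672). Il2rb, shared by the receptors for IL-2 and IL-15, ran from 13.7 to 86.4 CPM over the 17 libraries and passed in neither genotype. Il21r, the IL-21 receptor carried by B and T cells, was at 14.5, 151 and 72.9 CPM against 13.4 to 63.1 CPM in Kit-B6 mice (-1.28 ± 0.58, edgeR adjusted p = 0.0857), and at 37.5 and 16.5 CPM against 22.3 to 51.7 CPM in Kit-W/sh mice (0.21 ± 0.73, adjusted p = 0.830).

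Of the T cell markers 4 of 12 passed as lower in Kit-B6 and 1 of 12 in Kit-W/sh tumors, and of the B cell markers 4 of 7 tested in Kit-B6 and 0 of 7 in Kit-W/sh tumors, with none higher in either genotype. The summed level of the 12 T cell markers, all measured, was 661 to 1973 CPM in Kit-B6 preneoplastic colon, 783 to 923 CPM in Kit-W/sh preneoplastic colon, 208 to 704 CPM in Kit-B6 tumors and 377 to 1030 CPM in Kit-W/sh tumors. The highest tumor value belonged to the library labelled Kit-W/sh tumor 2. The 8 measured of 10 B cell markers summed to 150 to 2888 CPM in Kit-B6 and 151 to 323 CPM in Kit-W/sh preneoplastic colon, and to 33.1 to 804 and 18.2 to 122 CPM in tumors, with Cd79a at or below the floor in every library outside Kit-B6 preneoplastic colon. Kit-B6 preneoplastic 2, the library with the 2888 CPM, also held the highest Il21r, Il2rg, Il4 and Il21 of all 17 libraries. The part of lymphocyte content in the values of these genes was not tested.

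Il5ra, the IL-5 receptor chain best known on eosinophils and B-1 cells, was at 5.35 and 1.38 CPM in Kit-W/sh preneoplastic colon, 4 counts in all, and from 17 to 46.6 CPM in tumors. The scaled ratio was 9.11 (95% counting interval 3.50 to 33.7) and the log2 fold change 3.10 ± 1.08 (edgeR adjusted p = 0.0316). All 6 Kit-W/sh tumors reached the count needed for testing, and neither Kit-W/sh preneoplastic library did. Groups did not overlap, and the call was lost without either preneoplastic library (adjusted p = 0.0973 and 0.224). In Kit-B6 mice Il5ra was at 7.24, 27.0 and 12.4 CPM against 7.88 to 95.1 CPM, and its log2 fold change of 1.09 ± 0.74 did not pass (edgeR adjusted p = 0.242). The 3 measured of 4 eosinophil markers summed to 45.4 and 48.2 CPM in Kit-W/sh preneoplastic colon and 22.7 to 88.7 CPM in Kit-W/sh tumors, or at most 75.1 CPM without the library labelled Kit-W/sh tumor 2. The single markers went different ways. Ccr3, the eotaxin receptor, was at or below the floor in Kit-W/sh preneoplastic colon, at 1.78 and 4.13 CPM. It ran from 2.27 to 12.89 CPM in the tumors of these mice, above the floor in 5 of 6. Siglecf, an eosinophil lectin, was at 16.5 and 25.0 CPM in Kit-W/sh preneoplastic colon and 10.03 CPM or lower in all 6 tumors. Across the 3 markers the middle log2 fold change by stage was 0.614 in these mice, and 1 passed, as lower. Il13ra2, the decoy receptor for IL-13, was at 10.7 and 8.26 CPM against 11.6 to 119 CPM in Kit-W/sh mice, median 51.4, without overlap. For Il13ra2 too, all 6 of these tumors and neither of these preneoplastic libraries reached the count needed for testing. The 11.6 CPM belonged to the library labelled Kit-W/sh tumor 2, and the other 5 tumors began at 36.8 CPM. Its log2 fold change of 2.54 ± 1.00 just missed in edgeR (adjusted p = 0.0525) and passed in DESeq2 (0.0140). In Kit-B6 mice it was at 3.62, 23.4 and 9.31 CPM against 3.10 to 46.3 CPM, a log2 difference of 1.17 ± 0.79 (edgeR adjusted p = 0.242).

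In Kit-B6 mice the groups of 2 members did not overlap, Il13 and Il17rb, both lower in tumors, and no member was higher without overlap, beside 29.2% of all genes tested that did not overlap (16.6% higher and 12.7% lower). In Kit-W/sh mice 7 members were higher without overlap (Il6, Il1r1, Il1r2, Il2ra, Il2rg, Il5ra and Il13ra2) and 4 were lower (Il7, Il13, Il15 and Il17rb), beside 58.6% of all genes (30.4% higher and 28.2% lower). With only 2 Kit-W/sh preneoplastic libraries against 6 tumors, separation is common across the panel. Leaving out either of the 2 reduced the 8 calls to 2: Il13 and Il1r2 remained without preneoplastic 1, and Il17rb and Il1r2 without preneoplastic 2. Scaling to 2 reference genes ended the calls of Il15, Il17rb, Il2ra and Il5ra in these mice (edgeR adjusted p 0.0577 to 0.0952).

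**Figure D3:**
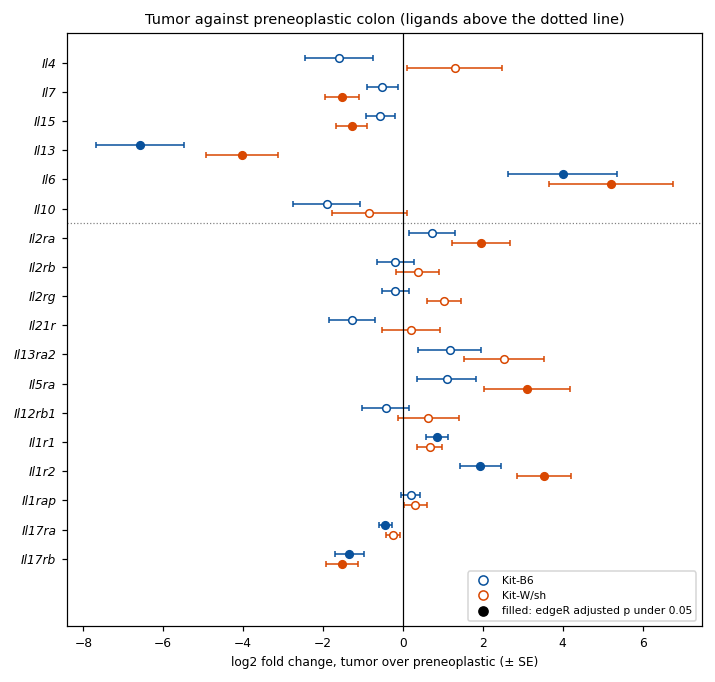
Log2 fold change of tumor over preneoplastic colon for the 18 tested members, in Kit-B6 (blue) and Kit-W/sh (orange) mice, with bars of 1 SE and filled points for an edgeR adjusted p under 0.05. Ligands stand above the dotted line and receptor chains below it. Il6 and Il1r2 are filled on the right, and Il13 and Il17rb on the left, in both genotypes. The fitted Il13 values depend on the small count added to zeros and are not measured folds.

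The pathway around these genes was read from 40 listed genes, such as kinases, STAT proteins, feedback inhibitors and partner chains, of which 16 were measured and 15 tested. In Kit-B6 mice 6 of 15 passed (40%, background 41.1%), 3 higher and 3 lower, and in Kit-W/sh mice 5 of 15 (33.3%, background 39.7%), 2 higher and 3 lower. Csf2rb, the signalling chain that partners Il5ra, was higher in Kit-B6 (log2 fold change 1.13 ± 0.38, edgeR adjusted p = 0.0257) and Kit-W/sh tumors (1.48 ± 0.45, 0.0179). Stat3, the transcription factor downstream of IL-6, was higher in Kit-B6 tumors (0.58 ± 0.15, edgeR adjusted p = 0.00633), and its value in Kit-W/sh mice was 0.14 ± 0.17 (0.515). Gata3, the regulator of type 2 lymphocytes, was higher in Kit-B6 tumors (1.64 ± 0.51, edgeR adjusted p = 0.0173). It did not pass in Kit-W/sh mice, but its groups there did not overlap. Gata3 was at 8.92 and 9.63 CPM in Kit-W/sh preneoplastic colon against 17.04 to 40.89 CPM in tumors. The 40.89 CPM belonged to the library labelled Kit-W/sh tumor 2. In Kit-W/sh tumors Ebi3, a subunit of IL-27 and IL-35, was higher (1.33 ± 0.38, edgeR adjusted p = 0.0130). Lower in tumors of both genotypes were Sigirr, an inhibitory receptor of the IL-1 family (-2.00 ± 0.35 and -1.84 ± 0.38), and the cytokine signalling inhibitors Socs1 (-1.24 ± 0.39 and -1.44 ± 0.43) and Socs2 (-1.03 ± 0.22 and -1.27 ± 0.25).

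The second comparison asked how Kit-W/sh mice, short of mast cells, differ from Kit-B6 mice within each stage. In tumors none of the 14 tested members passed in edgeR, beside 0% of the 799 genes tested. Unadjusted p was under 0.05 for 2 members, Il6 and Il15, and for 13.6% of all genes. DESeq2 called 0 members and 27 genes of the panel (3.35%). No member's groups separated, and 0.626% of all genes did. The tested members' median log2 fold change was 0.16, beside -0.01 over all genes.

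Il6 was the member farthest apart between the genotypes in tumors. Of the 6 Kit-W/sh tumors, 5 lay above the Kit-B6 median of 43.0 CPM and 4 above every Kit-B6 tumor, while Kit-W/sh tumor 1 at 58.4 CPM and the library labelled Kit-W/sh tumor 2 at 16.2 CPM lay within the Kit-B6 range. The log2 fold change was 2.34 ± 0.85 (edgeR adjusted p = 0.258, DESeq2 adjusted p = 0.0643). Without the library labelled Kit-W/sh tumor 2 it was 2.59 ± 0.75 (edgeR adjusted p = 0.0906). The neutrophil marker sum did not overlap between the genotypes (62.1 to 258 against 272 to 761 CPM), but 0 of the 3 tested neutrophil markers passed in edgeR. The monocyte and macrophage sums overlapped (1431 to 3501 against 2322 to 3890 CPM), as did the fibroblast sums (2840 to 11390 against 4530 to 7319 CPM). The part of these cells in the Il6 difference was not tested. Il15 lay below the Kit-B6 median of 213 CPM in 6 of 6 Kit-W/sh tumors, with a log2 difference of -0.74 ± 0.27 (edgeR adjusted p = 0.258, and 0.113 without the library labelled Kit-W/sh tumor 2).

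The other members with the smallest p in tumors were receptor chains, each higher on average in Kit-W/sh tumors and none past the threshold. Il1r2 differed by 0.60 ± 0.34 and Il2ra by 0.77 ± 0.43 on the log2 scale (edgeR adjusted p = 0.450 for each). For Il13ra2 the difference was 0.99 ± 0.58 (edgeR adjusted p = 0.461), or 1.2 ± 0.53 without the library labelled Kit-W/sh tumor 2 (0.235), and for Il2rg 0.31 ± 0.24 (0.588). All 6 Kit-W/sh tumors lay above the Kit-B6 median for Il2ra, and 5 of 6 for Il1r2 and Il13ra2. Without Kit-B6 tumor 4, the tumor with the lowest Il1r2, the Il1r2 difference was 0.38 ± 0.25 (edgeR adjusted p = 0.546). Il13 had 0 counts in the 6 Kit-B6 tumors and 5 counts over 3 of the Kit-W/sh tumors, at or below the floor in each.

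**Figure D4:**
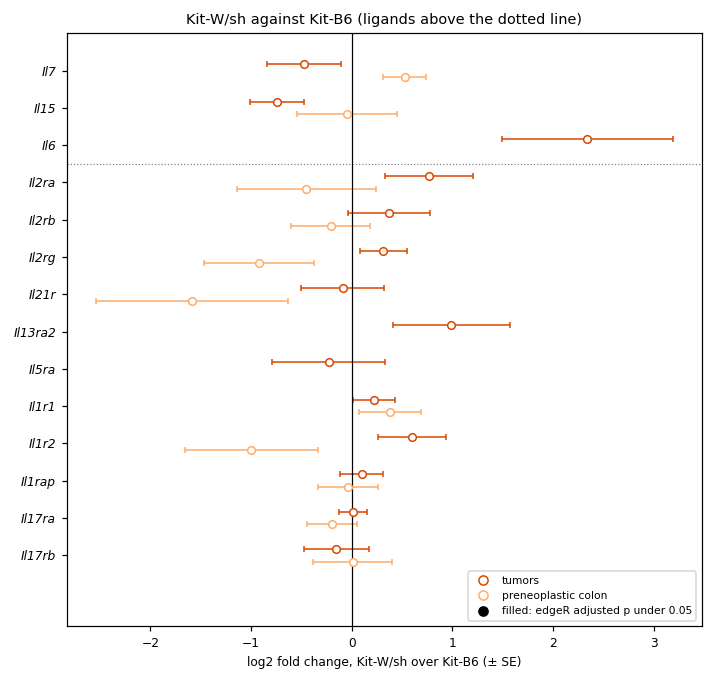
Log2 fold change of Kit-W/sh over Kit-B6 for the tested members in tumors and in preneoplastic colon, with bars of 1 SE. No point passed an edgeR adjusted p of 0.05. In tumors Il6 lies farthest to the right at 2.34 and Il15 farthest to the left at -0.74, and in preneoplastic colon Il21r lies farthest to the left at -1.59.

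In preneoplastic colon 11 members could be tested and none passed in edgeR, beside 0.129% of the 777 genes tested. Unadjusted p was under 0.05 for 1 member, Il7, and for 10.7% of all genes. DESeq2 called 0 members, with no adjusted p for 16 of the 23, and 3.35% of the genes it tested. Il7 was at 325 and 333 CPM in Kit-W/sh mice against 212, 228 and 234 CPM in Kit-B6 mice, a log2 difference of 0.52 ± 0.21 (edgeR adjusted p = 0.461). Of the 11 tested members it was the one whose groups did not overlap, beside 30% of all genes tested (16.7% higher). The next smallest p-values belonged to receptor chains. Il2rg differed by -0.92 ± 0.54 (edgeR adjusted p = 0.542), Il21r by -1.59 ± 0.96 (0.548) and Il1r2 by -0.998 ± 0.662 (0.606). Il1r1 differed by 0.38 ± 0.30 (edgeR adjusted p = 0.669) and Il17ra by -0.20 ± 0.25 (0.813). Without Kit-B6 preneoplastic 2, the library rich in B cell markers, the Il2rg difference was -0.36 ± 0.42, that of Il21r -0.75 ± 0.84 and that of Il1r2 -0.40 ± 0.57. Among the members too low to test, both Kit-W/sh libraries lay above every Kit-B6 library for Il6 (10 against 6 counts) and Il12b (7 against 5), and below for Il4 (2 against 11) and Il5ra (4 against 27). In a single preneoplastic library Il6, Il12b and Il4 reached at most 6, 4 and 7 counts. With 2 against 3 libraries such separation is common, as the 30% of tested genes shows, and its share among genes too low to test was not counted.

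The last comparison asked whether the tumor change differed between the genotypes. None of the 18 tested members passed in edgeR, beside 0% of the 869 genes tested, and the unadjusted p was under 0.05 for 2 members, Il2rg and Il1r2, and for 7.25% of all genes. DESeq2 called 0 members and 0.104% of the genes it tested. The interaction, the Kit-W/sh change minus the Kit-B6 change, was 1.23 ± 0.54 for Il2rg, 1.59 ± 0.75 for Il1r2, 2.90 ± 1.45 for Il4 and 2.56 ± 1.28 for Il13 (edgeR adjusted p = 0.660 for each). It was -1.01 ± 0.59 for Il7 (edgeR adjusted p = 0.733) and 2.01 ± 1.26 for Il5ra (0.766). The Il4 and Il13 values rest on counts at or near 0 and are no measured folds. Without Kit-B6 preneoplastic 2 the Il2rg value was 0.63 ± 0.50 and that of Il1r2 0.96 ± 0.75. So the calls made in 1 genotype alone, such as Il5ra and Il2ra in Kit-W/sh mice, were not shown to differ from the other genotype.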

How the data were processed

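Per the labels, RNA of 17 mouse colon samples went through a QIAseq targeted immuno-oncology panel, which amplifies short stretches of chosen transcripts by PCR, and onto a MiSeq. The authors deposited whole-number counts per gene, 1 table a sample. The submitters' processing notes name mm9 and DESeq2 with no role, and the aligner and the counting of reads or molecular tags are not given in the sources used here. Of 993 entries, 988 were genes, 22 of them at 0 throughout. The 5 genomic control amplicons, at 0 counts, were left out.

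Members followed the symbol rule, and the members and lists were chosen with earlier results of these data known. The titles gave each sample's group and replicate number. The labels do not say that samples come from separate mice, so a p-value here reflects only how these samples vary, which may be technical. Intervals and floors cover counting error only, since amplified reads are not independent molecules.

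Counts were tested with edgeR 4.0.16 in R 4.3.3 (trimmed mean of M values scaling, filterByExpr keeping at least 10 counts and a total of 15, robust quasi-likelihood F test, two-sided), with Benjamini-Hochberg adjustment over all genes and a threshold of 0.05. Genotype was fitted within each stage, and stage and the interaction over all 17 libraries in 4 groups. Members that passed were named, or the 6 with the smallest p where fewer than 6 passed, and levels of the rest were given. Other scalings, DESeq2 1.42.0, no filter, a replicate block, other sample sets and leaving out each library were tried. The fits were tested on simulated counts, and no libraries were copies of each other: within a group, every pair had a chi-square per degree of freedom of 11.7 or more. Totals ran from 616009 to 1399902 counts, which puts ligands of a few counts at the limit of what could be compared.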

Additional observations from a re-analysis of the deposited data

Results flagged for a closer look

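A single library stood apart from the other 5 of its group in 3 of 38 group and gene combinations examined, by the gap to the nearest library relative to the group's range (Dixon's criterion at 95%, which chance meets in about 1 of 20). Il10 was at 12.8 CPM in Kit-W/sh tumor 6, and the next highest library of that group was at 4.30 CPM. Il12b was at 9.82 CPM in Kit-B6 tumor 2, next 3.52 CPM, and this library had the highest B cell marker sum of the 12 tumors, 804 CPM. The library labelled Kit-W/sh tumor 2 had Il21r, the IL-21 receptor, at 51.7 CPM, next 33 CPM, and its T cell marker sum of 1030 CPM was the highest of the tumors. The part of lymphocyte content in these values was not tested.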

How the results depend on the processing

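No interleukin gene passed for genotype in tumors, genotype in preneoplastic colon or the interaction under any alternative run, and over 572 alternative values of the genes called, or with the 6 smallest p where fewer were, 527 kept their side of the threshold, 45 lost a call, 0 gained one and 0 reversed. Outside that set Il10 and Il21r gained a Kit-B6 stage call, and Il13ra2, Il1r1 and Il2rg a Kit-W/sh one, in at least 1 alternative. Of the 6 Kit-B6 stage calls, 3 passed when that genotype was fitted alone (Il6, Il1r2 and Il17rb, with Il13 then too low to test), and leaving out 1 library gave 4 to 6. Of the 8 Kit-W/sh stage calls, 4 passed with scaling to 2 reference genes (Il6, Il7, Il13 and Il1r2), and leaving out 1 library gave 2 to 8, the 2 without either preneoplastic library. In the fits with the replicate block, 4 passed in Kit-B6 mice (Il10, Il13, Il1r1 and Il1r2) and 4 in Kit-W/sh mice (Il7, Il13, Il1r2 and Il17rb). Same-numbered samples correlated between -0.195 and 0.395. Some matched best with their own number and others did not, so this cannot decide whether the numbers pair the samples. The causes of these losses were not tested. Over the whole panel, reference-gene scaling lowered the Kit-W/sh stage calls from 345 to 180 and those in Kit-B6 mice were 245 against 357. DESeq2 called 27 genes against 0 for genotype in tumors and 21 against 1 in preneoplastic colon, where leaving out Kit-B6 preneoplastic 1 gave 16, and leaving out Kit-W/sh preneoplastic 1 or 2 left 132 or 159 of the 345 stage calls in number. Leaving out the library labelled Kit-W/sh tumor 2 together with Kit-B6 tumor 4, and the scaling to the 9 genes listed last, were chosen after seeing the data. The first gave 15 genes for genotype in tumors, 0 of them interleukin genes. With a floor of 10 counts the genes above it in every library of a group were 14 in place of 17.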

Other observations

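Several of these genes lie next to each other on the chromosome, with 0 protein-coding genes between them in RefSeq. Il1r1 and Il1r2 on chromosome 1 both passed as higher in Kit-B6 tumors, by 0.85 and 1.94 on the log2 scale, and both were without overlap in Kit-W/sh mice, where Il1r2 alone passed. Il4 and Il13 on chromosome 11 did not move alike: Il13 passed as lower in tumors of both genotypes, while Il4 passed in neither and had 13 counts in Kit-B6 tumors, where Il13 had 0. Il2 and Il21 on chromosome 3 were both near the floor in every group.

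The share of each library taken by the 23 genes ran from 0.127% to 0.214% in Kit-B6 tumors and from 0.204% to 0.266% in Kit-W/sh tumors. In preneoplastic colon it was 0.133% to 0.166% and 0.141% to 0.145%. The decoy receptors Il1r2 and Il13ra2 had their highest values of all 17 libraries in the same one, Kit-W/sh tumor 5, at 537 and 119 CPM. This library also had the highest Il1r1, 522 CPM. Its neutrophil sum, 761 CPM, and its monocyte and macrophage sum, 3890 CPM, were the highest too.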
